A study of Mus musculus with 35 samples.

Results

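The Cyp2d cytochromes are 8 protein-coding mouse genes, Cyp2d9, Cyp2d10, Cyp2d11, Cyp2d12, Cyp2d22, Cyp2d26, Cyp2d34 and Cyp2d40, taken by name from a table of raw counts for 55413 genes in mouse liver. All 8 passed the filter on low counts, which left 15297 genes. They lie within 424 kb of chromosome 15 (mm10 coordinates), together with 9 of the 10 Cyp2d pseudogenes of the annotation. The liver was sequenced by a 3' end method, so that each read comes from near the end of a polyadenylated transcript. Of 21 C57Bl6 mice, 5 were untreated and harvested at day 260 after birth (untreated). The others received 25 mg/kg of diethylnitrosamine (DEN), a liver carcinogen, into the peritoneum on day 14. Livers of 4 such mice were taken at day 133, before any antisense oligonucleotide was given (P133). From day 133 to day 260, 6 DEN mice received a control antisense oligonucleotide (control ASO) and 6 an oligonucleotide aimed at Smyd3 mRNA (Smyd3-ASO), at 50 mg/kg 2 times a week. The labels call the DEN samples tumours and hepatocellular carcinoma and the untreated samples normal liver. The RNA came from pieces of liver, and how much of a piece was tumour is not given in the sources used here. No DEN mouse without an oligonucleotide was harvested at day 260 among the groups, so DEN and the control ASO cannot be told apart in the comparison with untreated mice, nor DEN and age in that of P133 with untreated mice.

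Cyp2d enzymes are cytochrome P450 monooxygenases of the endoplasmic reticulum, most abundant in hepatocytes. Each holds a haem group and takes electrons from NADPH through the reductase Por, in part with cytochrome b5, to add an oxygen atom to a drug or steroid. Humans rely on a single functional gene, CYP2D6, which acts on many prescribed drugs, whereas the mouse family expanded into a cluster of close copies. Cyp2d9 is known as a testosterone hydroxylase with higher expression in male than in female liver, under control of growth hormone secretion. Cyp2d22 is the mouse member often compared with CYP2D6, and HNF4A is a known activator of Cyp2d genes in liver.

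The members are close copies, which matters for a 3' end method, and the last 90 coding bases of Cyp2d9 and of the 4 members that line up with it without gaps are shown for that reason, read from the GENCODE vM21 transcripts, with mm10 coordinates. Capitals mark bases that differ from Cyp2d9, at 19 positions in Cyp2d10, 12 in Cyp2d11, 14 in Cyp2d12 and 19 in Cyp2d34. All lie in the last exon, exon 9 of 9 in each model.
Cyp2d9, chr15:82456674-82456763, plus strand: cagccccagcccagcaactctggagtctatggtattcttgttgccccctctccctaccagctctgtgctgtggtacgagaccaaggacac
Cyp2d10, chr15:82402909-82402998, minus strand: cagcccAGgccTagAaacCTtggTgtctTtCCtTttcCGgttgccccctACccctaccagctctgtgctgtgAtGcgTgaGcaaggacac
Cyp2d11, chr15:82389157-82389246, minus strand: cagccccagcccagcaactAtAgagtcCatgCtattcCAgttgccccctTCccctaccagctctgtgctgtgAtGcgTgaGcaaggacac
Cyp2d12, chr15:82559261-82559350, plus strand: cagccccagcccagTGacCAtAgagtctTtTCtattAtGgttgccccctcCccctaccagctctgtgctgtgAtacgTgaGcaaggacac
Cyp2d34, chr15:82616025-82616114, minus strand: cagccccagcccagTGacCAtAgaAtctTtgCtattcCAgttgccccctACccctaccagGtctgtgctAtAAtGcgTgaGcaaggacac
Over the last 300 transcript bases, identity was 86.1% between Cyp2d9 and Cyp2d12, 86.8% between Cyp2d10 and Cyp2d34, 85.9% between Cyp2d26 and Cyp2d40 and 75.2% between Cyp2d9 and Cyp2d10. Of the 50-base windows in the last 500 transcript bases, 19.5 to 33.5% in 7 members were found unchanged in another gene's transcripts, and 0% in Cyp2d22. Cyp2d40 had the largest share, with 21.1% of its windows also in the pseudogene Cyp2d41-ps. Neither the read length nor how the authors' counting treated reads that fit several genes is given in the sources used here. Values of the members are thus uncertain by whatever reads were shared. The 0% of Cyp2d22 covers exact 50-base windows only, not shorter reads or reads with mismatches. The model of Cyp2d11 ends at its stop codon, with 0 bases after it, where the others hold 57 to 1020 bases, so reads past the stop codon of Cyp2d11 could not fall in its model. Short microRNA gene models overlap Cyp2d9, Cyp2d10, Cyp2d11 and Cyp2d12 near their first exons, and these models held 1134, 312, 12 and 46 counts over all mice.

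Promoters are shown for 4 members, Cyp2d9, Cyp2d10 and Cyp2d11, which share a run of 32 bases, and Cyp2d26, which has another sequence. Whether promoter sequence bears on the values of the members was not tested. The RefSeq promoter table (GRCm38.p6) matched 5 of the 8 members, Cyp2d9, Cyp2d10, Cyp2d11, Cyp2d26 and Cyp2d40. The 250 bases before each RefSeq start are printed, with capitals for the TATA box letters TATAAA and the letters AGTCCA on either strand.
Cyp2d9, chr15:82452127-82452376, plus strand: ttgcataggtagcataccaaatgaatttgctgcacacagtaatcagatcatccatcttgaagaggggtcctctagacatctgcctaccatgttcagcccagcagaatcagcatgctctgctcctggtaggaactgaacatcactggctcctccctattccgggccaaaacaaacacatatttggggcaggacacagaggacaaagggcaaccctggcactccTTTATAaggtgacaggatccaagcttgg
Cyp2d10, chr15:82407195-82407444, minus strand: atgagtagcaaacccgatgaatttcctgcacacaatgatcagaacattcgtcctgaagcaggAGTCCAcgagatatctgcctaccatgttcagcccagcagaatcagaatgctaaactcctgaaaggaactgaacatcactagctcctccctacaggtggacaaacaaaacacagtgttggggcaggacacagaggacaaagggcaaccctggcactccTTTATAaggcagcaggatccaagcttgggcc
Cyp2d11, chr15:82394023-82394272, minus strand: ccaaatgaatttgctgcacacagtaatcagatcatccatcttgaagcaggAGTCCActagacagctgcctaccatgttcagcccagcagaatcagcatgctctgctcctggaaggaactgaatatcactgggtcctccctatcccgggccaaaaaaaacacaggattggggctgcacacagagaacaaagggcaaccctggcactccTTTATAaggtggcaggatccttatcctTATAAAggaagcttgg
Cyp2d26, chr15:82794246-82794495, minus strand: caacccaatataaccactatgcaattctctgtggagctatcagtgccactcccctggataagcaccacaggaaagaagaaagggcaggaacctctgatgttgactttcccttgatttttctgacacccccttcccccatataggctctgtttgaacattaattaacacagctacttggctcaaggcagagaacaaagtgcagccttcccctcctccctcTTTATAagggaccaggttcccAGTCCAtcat
Over the whole 300-base windows, which add 50 bases after the start, Cyp2d9 was 84.5% identical to Cyp2d11, 82.9% to Cyp2d10, 53.4% to Cyp2d40 and 50.7% to Cyp2d26, and Cyp2d10 was 76.8% identical to Cyp2d11. The longest run shared by Cyp2d9, Cyp2d10 and Cyp2d11 was 32 bases, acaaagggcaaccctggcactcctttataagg, and no other promoter of the 32851 in the table held it. All 5 members held TATAAA, which 13.62% of all promoters hold on either strand. In each it stood on the strand opposite to the gene, first at -28 (Cyp2d9), -31 (Cyp2d10 and Cyp2d26), -43 (Cyp2d11) and -91 (Cyp2d40) from the RefSeq start. Cyp2d11 also held it on the gene's strand at -16. The GENCODE gene models of Cyp2d9 and Cyp2d26 begin further upstream, at 82433437 and 82794294, so these letters lie within their gene spans. AGTCCA stood in 4 of 5, all but Cyp2d9, and in 14.15% of all promoters. CAAAGTCCA (a core of HNF4A sites, which contains AGTCCA), TTGCGCAA and TTGCNNAA (C/EBP, which overlap each other), TTCNNNGAA (STAT5), CCGGAAGT and GGAAGT (GABP and ETS, which overlap each other) stood in none of the 5 windows, against 0.47, 0.18, 10.8, 8.3, 3.89 and 23.77% of all promoters.

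Total counts per mouse were lowest in the P133 group, at 4556484 to 6447397. They reached 10186780 to 13116012 in the untreated group, 6789715 to 13805881 with the control ASO and 6358080 to 20258619 with the Smyd3-ASO. Levels are CPM, counts scaled to a common library size with TMM factors, not divided by transcript length, since a 3' end method counts ends. Smyd3, the targeted mRNA, lay between 2.36 and 5.47 CPM in the 15 other mice and between 0 and 0.758 CPM in the 6 Smyd3-ASO mice (log2 change over control ASO -3.66 ± 0.47, adjusted p = 0.000148, edgeR quasi-likelihood test with Benjamini-Hochberg adjustment, as for every adjusted p here). Xist was at 0 in all 21 mice and the Y-linked Ddx3y at 28.1 to 58.6 CPM, while the labels give no sex. Fewer copies per cell and fewer cells of a type cannot be told apart in bulk liver. Scaling by library totals in place of TMM raised the median log2 change of all genes to 0.90 in control ASO over untreated, 0.96 in Smyd3-ASO over untreated, 0.59 in P133 over untreated, 0.28 in control ASO over P133 and 0.34 in Smyd3-ASO over P133, but to 0.04 in Smyd3-ASO over control ASO. Changes are therefore relative to the median gene, and shares within the family, which need no scaling between mice, are given beside them.

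In untreated liver Cyp2d9 was the highest member, at 924, 1689, 1069, 1196 and 633 CPM in mice 1 to 5. Cyp2d26 followed at 580 to 785 CPM and Cyp2d10 at 378 to 615 CPM. The ranges of these 3 overlapped between neighbours, with Cyp2d9 above Cyp2d26 in 4 of 5 mice and Cyp2d26 above Cyp2d10 in 5 of 5. Cyp2d22 lay between 63.8 and 276 CPM and Cyp2d40 between 31.1 and 48.4 CPM, each apart from its neighbours in the order. Cyp2d11, Cyp2d34 and Cyp2d12 were near the floor, at means of 2.15, 1.71 and 1.22 CPM, and their ranges overlapped. P133 mice kept the order of the 5 abundant members, here with no overlap between neighbours.

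The make-up of the family differed between groups. Cyp2d9 gave 43.6% ± 6.47 (SD, n = 5) of the summed counts of the 8 members in untreated livers and 45.7% ± 2.09 (n = 4) at P133. With the control ASO its share was 20.4% ± 5.34, and with the Smyd3-ASO 34.9% ± 6.94 (n = 6 each). Its share ran from 13.2 to 26.4% in control-ASO mice, below the lowest untreated mouse (35.5%) and the lowest P133 mouse (43.8%), and overlapped that of Smyd3-ASO mice (24.4 to 41.9%). Cyp2d26 gave 29.1% ± 5.61 of the untreated sum, 28.4% ± 0.981 at P133, 53.6% ± 6.33 with the control ASO and 37.2% ± 6.16 with the Smyd3-ASO. Here control-ASO mice, at 45.1 to 60.6%, stood above all untreated and P133 mice, and the ranges of the ASO groups overlapped by 1 Smyd3-ASO mouse at 46.7%. Cyp2d10 stayed between 17.3 and 24.2% of the family in every mouse, with means of 20.7, 20.1, 18.9 and 18.4% in the same order of groups. The ratio of Cyp2d9 to Cyp2d26 counts was 1.57 ± 0.497 without treatment, 1.62 ± 0.121 at P133, 0.396 ± 0.148 with the control ASO and 0.983 ± 0.325 with the Smyd3-ASO. These shares and ratios are descriptions with no test. Summed over the 8 members, the level was 2481 ± 597 CPM in untreated livers, 2387 ± 192 at P133, 1468 ± 247 with the control ASO and 1132 ± 256 with the Smyd3-ASO. Unlike the shares, these sums depend on the TMM factors. As a percent of all counts, the 8 members held 0.110 to 0.220 in untreated mice and 0.218 to 0.260 at P133. They held 0.144 to 0.211 with the control ASO, inside the untreated range, and 0.109 to 0.165 with the Smyd3-ASO.

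**Figure D1:**
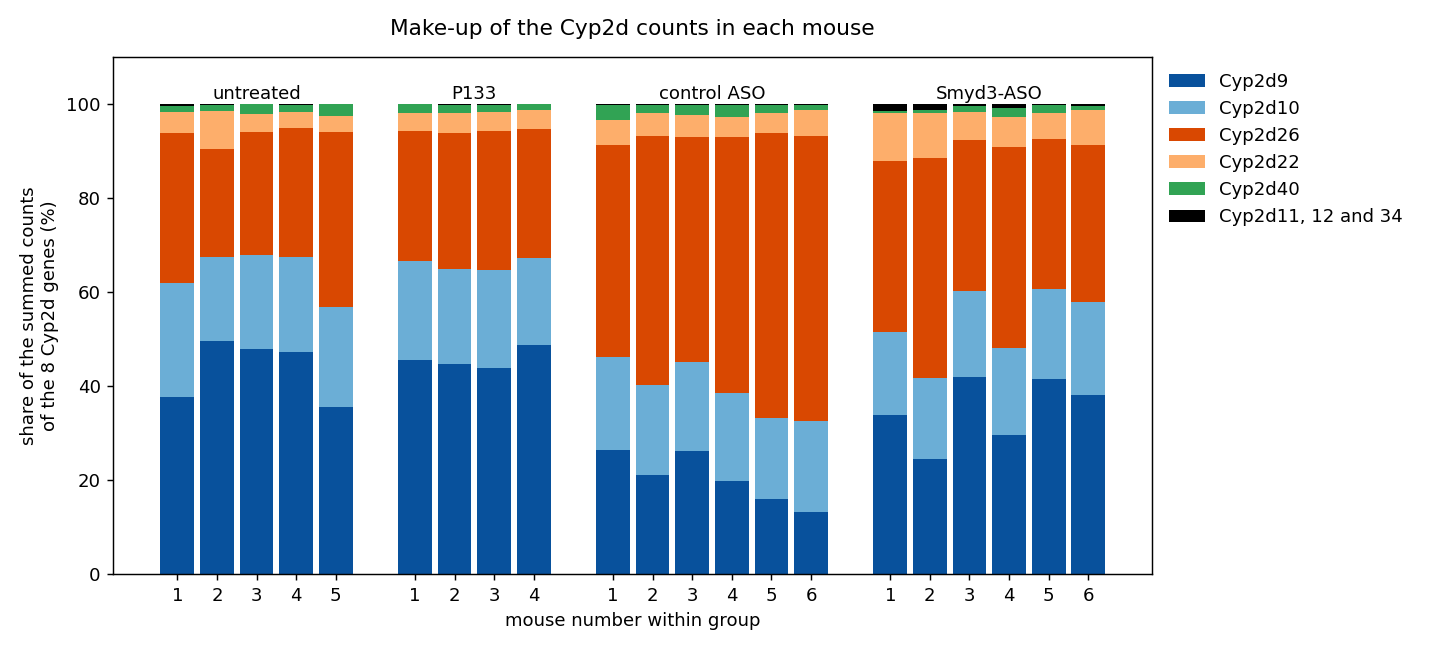
Share of each member in the summed counts of the 8 Cyp2d genes (percent, vertical axis) in each of the 21 mice (horizontal axis, by group). Each bar is 1 mouse, and Cyp2d9 makes up 13.2 to 26.4% in control-ASO mice against 35.5 to 49.5% in untreated mice.

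P133 livers showed no called change in the family against untreated livers: 0 of 8 members passed an adjusted p of 0.05 by edgeR, where 31.6% of all genes did, 0 of 8 had an unadjusted p under 0.05, and DESeq2 and limma voom also called 0. Cyp2d9 was at 1088, 968, 1153 and 1153 CPM in the 4 P133 mice, inside the untreated range (log2 change -0.01 ± 0.23). The changes were -0.08 ± 0.17 for Cyp2d10 and -0.04 ± 0.15 for Cyp2d26. The median change of the members was -0.25, against 0.00184 over all genes. With library totals Cyp2d26 and Cyp2d40 were called higher in P133, by 0.54 and 0.45, which is under the 0.59 shift of the median gene.

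Control-ASO livers at day 260 had less Cyp2d9 and Cyp2d10 than untreated livers, and no called change in Cyp2d26. Members passing the threshold numbered 2 of 8, both lower, where 45.9% of all genes passed and 22.2% were lower. Cyp2d9, the testosterone hydroxylase, lay between 147 and 474 CPM in the 6 control-ASO mice (median 309), all under the lowest untreated mouse at 633 CPM. It was 3.59-fold lower (log2 change -1.84 ± 0.29, adjusted p = 0.000191). Cyp2d10 lay between 216 and 340 CPM (median 269), again under every untreated mouse, and was 1.84-fold lower (log2 change -0.88 ± 0.16, adjusted p = 0.000575). Ranges that did not overlap were seen for these 2 members and for 27.6% of all genes. With library totals Cyp2d9 still fell by 1.01 on the log2 scale (adjusted p = 0.00434), whereas Cyp2d10 was at -0.05 (adjusted p = 0.821), and less the shift of the median gene the values were -1.91 and -0.95.

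Cyp2d26 was at 645 to 918 CPM (median 788) in control-ASO mice and overlapped the untreated range, with a log2 change of 0.16 ± 0.15 (adjusted p = 0.425). With library totals it was called higher, by 0.998, which is the shift of the median gene plus 0.0955. Cyp2d22, the member compared with CYP2D6, did not pass (log2 change -0.84 ± 0.32, adjusted p = 0.0513). Its untreated values were 109, 276, 89.5, 87.4 and 63.8 CPM, so that mouse 2 stood far above the rest, and without that mouse the change was -0.32 (adjusted p = 0.118). Its call appeared in other fits, with DESeq2, with all 4 groups in 1 fit and without untreated mouse 3, 4 or 5. Cyp2d40 changed by -0.38 ± 0.27 (adjusted p = 0.282). The scarce Cyp2d11 and Cyp2d34 had changes of -1.05 ± 0.42 and -1.47 ± 0.63 (adjusted p = 0.0542 and 0.0694).

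Against P133, the earlier DEN stage, control-ASO livers showed the same fall of Cyp2d9 and Cyp2d10 and a fall of Cyp2d22. The members passing numbered 3 of 8, all lower, where 27.0% of all genes passed and 12.6% were lower. Cyp2d9 was 3.54-fold lower (log2 change -1.82 ± 0.25, adjusted p = 0.000235) and Cyp2d10 1.73-fold lower (-0.79 ± 0.15, adjusted p = 0.00132). Cyp2d22 was at 95.3, 95.8, 110 and 93.2 CPM in P133 mice and at 60.8 to 85.1 CPM (median 68.9) in control-ASO mice (log2 change -0.49 ± 0.12, adjusted p = 0.00904). All 3 had ranges apart, as did 21.3% of all genes. The Cyp2d22 call did not hold with library totals (-0.24, adjusted p = 0.123), with all 4 groups in 1 fit (-0.49, adjusted p = 0.194) or with the replicate block (-0.41, adjusted p = 0.0727). With library totals Cyp2d26 was called higher (0.46, adjusted p = 0.0298), or by 0.18 less the shift. Both this comparison and that with untreated mice use the same control-ASO mice, and age and the ASO cannot be told apart here.

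**Figure D2:**
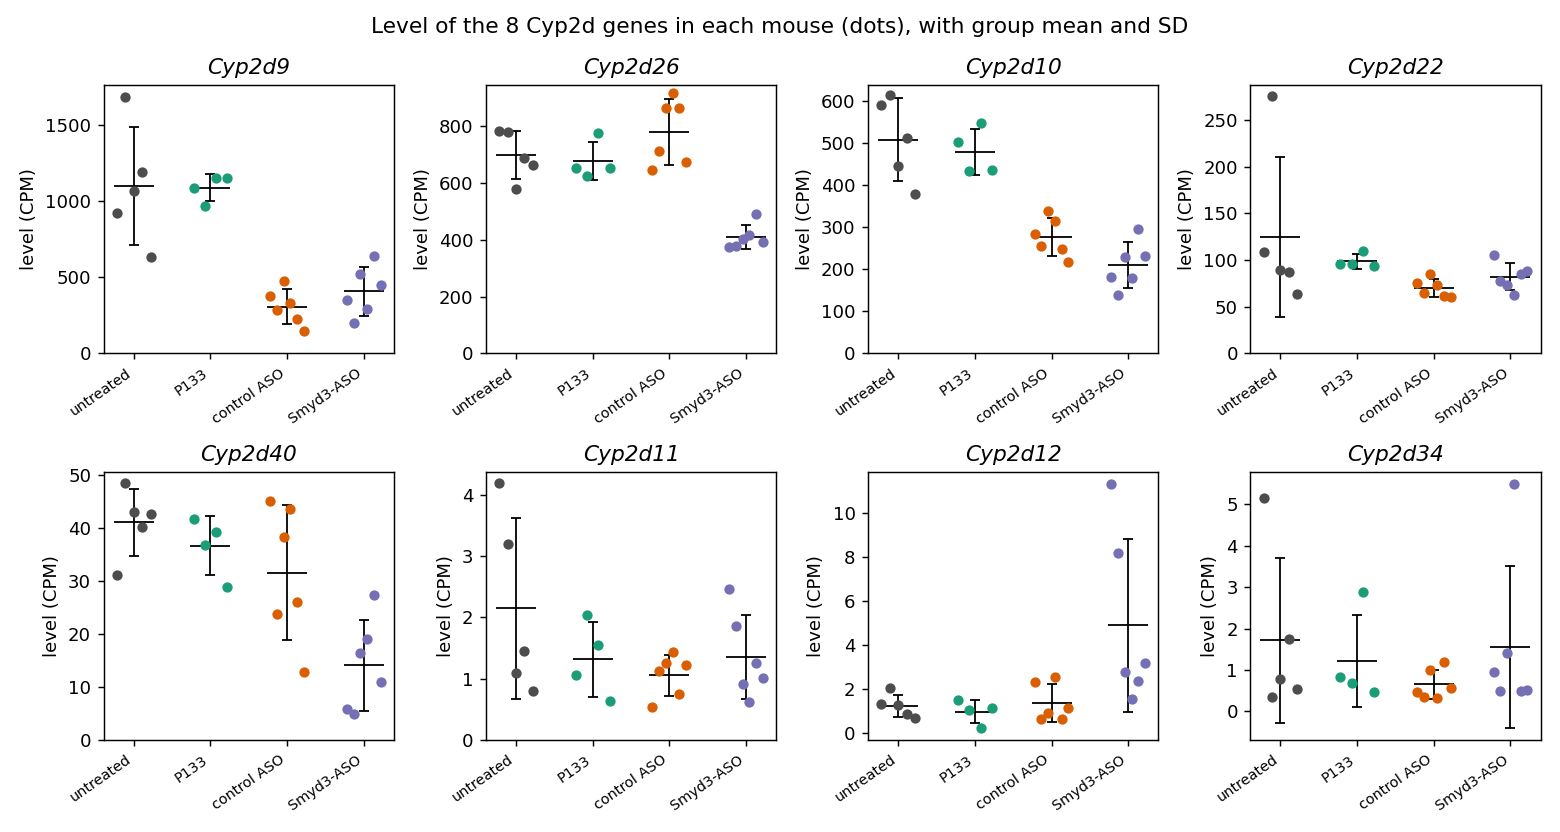
Level of each member in CPM (vertical axis, a scale of its own in each panel) in every mouse (dots) of the 4 groups, with group mean and SD (n = 5, 4, 6 and 6). Cyp2d9 and Cyp2d10 are lower in both ASO groups than in untreated and P133 mice, and Cyp2d26 is lower in Smyd3-ASO mice, at 377 to 492 CPM.

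Smyd3-ASO livers differed from control-ASO livers mainly in Cyp2d26. Members passing the threshold numbered 2 of 8, with Cyp2d26 lower and Cyp2d12 higher, where 26.1% of all genes passed. Cyp2d26 was at 377, 377, 402, 417, 492 and 393 CPM in Smyd3-ASO mice 1 to 6 and at 645 to 918 CPM in control-ASO mice. Every Smyd3-ASO mouse was thus below every control-ASO mouse, which held for 1 of 8 members and 11.1% of all genes. The gene was 1.91-fold lower (log2 change -0.94 ± 0.14, adjusted p = 0.000407). All 22 other fits kept this call, with log2 changes from -0.997 to -0.869, library totals included (-0.92).

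Cyp2d9 and Cyp2d10 did not pass between the ASO groups. Cyp2d9 was at 197 to 641 CPM (median 400) under Smyd3-ASO, overlapping control ASO (log2 change 0.40 ± 0.30, adjusted p = 0.333). Cyp2d10 was at 140 to 296 CPM (median 205, log2 change -0.41 ± 0.18, adjusted p = 0.105), with a call without Smyd3-ASO mouse 5. Cyp2d22 changed by 0.22 ± 0.14 (adjusted p = 0.253). Cyp2d40 was at 5.84, 4.90, 16.4, 19.0, 27.2 and 10.9 CPM in Smyd3-ASO mice and at 12.7 to 45.1 CPM (median 32.1) in control-ASO mice, and missed the threshold (log2 change -1.17 ± 0.43, adjusted p = 0.0592). It passed in 7 of 22 other fits, DESeq2 and limma voom among them (adjusted p = 0.0175 and 0.0361), and without Smyd3-ASO mice 1 and 2, its lowest, the change was -0.77 (adjusted p = 0.148). The members' median change was 0.29, against 0.01 over all genes.

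Cyp2d12 rose in Smyd3-ASO mice from a very low level, and the rise rested largely on 2 mice. Its raw counts were 188, 210, 51, 35, 38 and 25 in Smyd3-ASO mice 1 to 6, and 34, 9, 7, 30, 6 and 14 in control-ASO mice. In CPM, Smyd3-ASO mice 1 and 2 were at 11.3 and 8.16, and the other 4 at 1.55 to 3.16, against 0.637 to 2.52 under control ASO. The log2 change was 1.82 ± 0.53 (adjusted p = 0.0239). Without mice 1 and 2, a fit added after these counts were seen, it was 0.82 (adjusted p = 0.189). The call was also lost without Smyd3-ASO mouse 1 alone (1.38, adjusted p = 0.0543) or mouse 2 alone (1.60, adjusted p = 0.0529), without control-ASO mouse 2, 5 or 6 (adjusted p = 0.0505, 0.0515 and 0.0511), with limma voom (adjusted p = 0.0701) and with no filter (adjusted p = 0.0606). Smyd3-ASO mice 1 and 2 were also the 2 highest of their group for Cyp2d11 (2.47 and 1.87 CPM) and the 2 lowest for Cyp2d40, and had the highest TMM factors of all 21 mice (1.35 and 1.42). The part of scaling in these values was not tested.

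Set against untreated livers, Smyd3-ASO livers had lower values of the 4 members Cyp2d9, Cyp2d10, Cyp2d26 and Cyp2d40, and higher Cyp2d12. That is 5 of 8 members passing, where 47.6% of all genes passed, with 23.2% of all genes lower and 24.4% higher. Log2 changes were -1.45 ± 0.31 for Cyp2d9 (adjusted p = 0.00165), -1.30 ± 0.20 for Cyp2d10 (adjusted p = 0.000195), -0.79 ± 0.15 for Cyp2d26 (adjusted p = 0.000661) and -1.56 ± 0.39 for Cyp2d40 (adjusted p = 0.00627). Ranges were apart for Cyp2d10, Cyp2d26 and Cyp2d40, as for 28.4% of all genes, while for Cyp2d9 the highest Smyd3-ASO mouse (641 CPM) just exceeded the lowest untreated mouse (633 CPM). With library totals the calls of Cyp2d9, Cyp2d10 and Cyp2d26 were lost (-0.59, -0.45 and 0.08, adjusted p = 0.0714, 0.0731 and 0.703) and that of Cyp2d40 held (-0.73, adjusted p = 0.0479), and less the 0.96 shift all 4 were lower, by -1.55, -1.40, -0.88 and -1.69. Cyp2d12 changed by 1.96 ± 0.55 (adjusted p = 0.0102), and by 0.96 without Smyd3-ASO mice 1 and 2 (adjusted p = 0.0513). limma voom gave 1.65 (adjusted p = 0.0822).

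The same 5 members passed against P133, where 24.8% of all genes did. Cyp2d9 fell by 1.42 on the log2 scale (SE 0.27, adjusted p = 0.0033), Cyp2d10 by 1.20 (SE 0.20, adjusted p = 0.00148) and Cyp2d26 by 0.73 (SE 0.14, adjusted p = 0.00366). All 20 other fits kept these 3 calls. Cyp2d40 fell by 1.38 (SE 0.43, adjusted p = 0.0372), a call lost in 9 of 20 other fits, among them without any 1 of the 4 P133 mice (adjusted p = 0.0581 to 0.0846), without Smyd3-ASO mouse 1, 3 or 6 (adjusted p = 0.0526, 0.0591 and 0.0643) and with no filter (adjusted p = 0.128). Cyp2d12 rose by 2.32 (SE 0.69, adjusted p = 0.0296), from P133 counts of 7, 6, 1 and 7. That call was lost in 7 of 20 other fits, among them without any 1 P133 mouse (adjusted p = 0.0547 to 0.0775), and the change was 1.31 without Smyd3-ASO mice 1 and 2 (adjusted p = 0.0734). Ranges were apart for all 5 members and for 19.3% of all genes. The 3 comparisons with Smyd3-ASO share the same Smyd3-ASO mice.

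**Figure D3:**
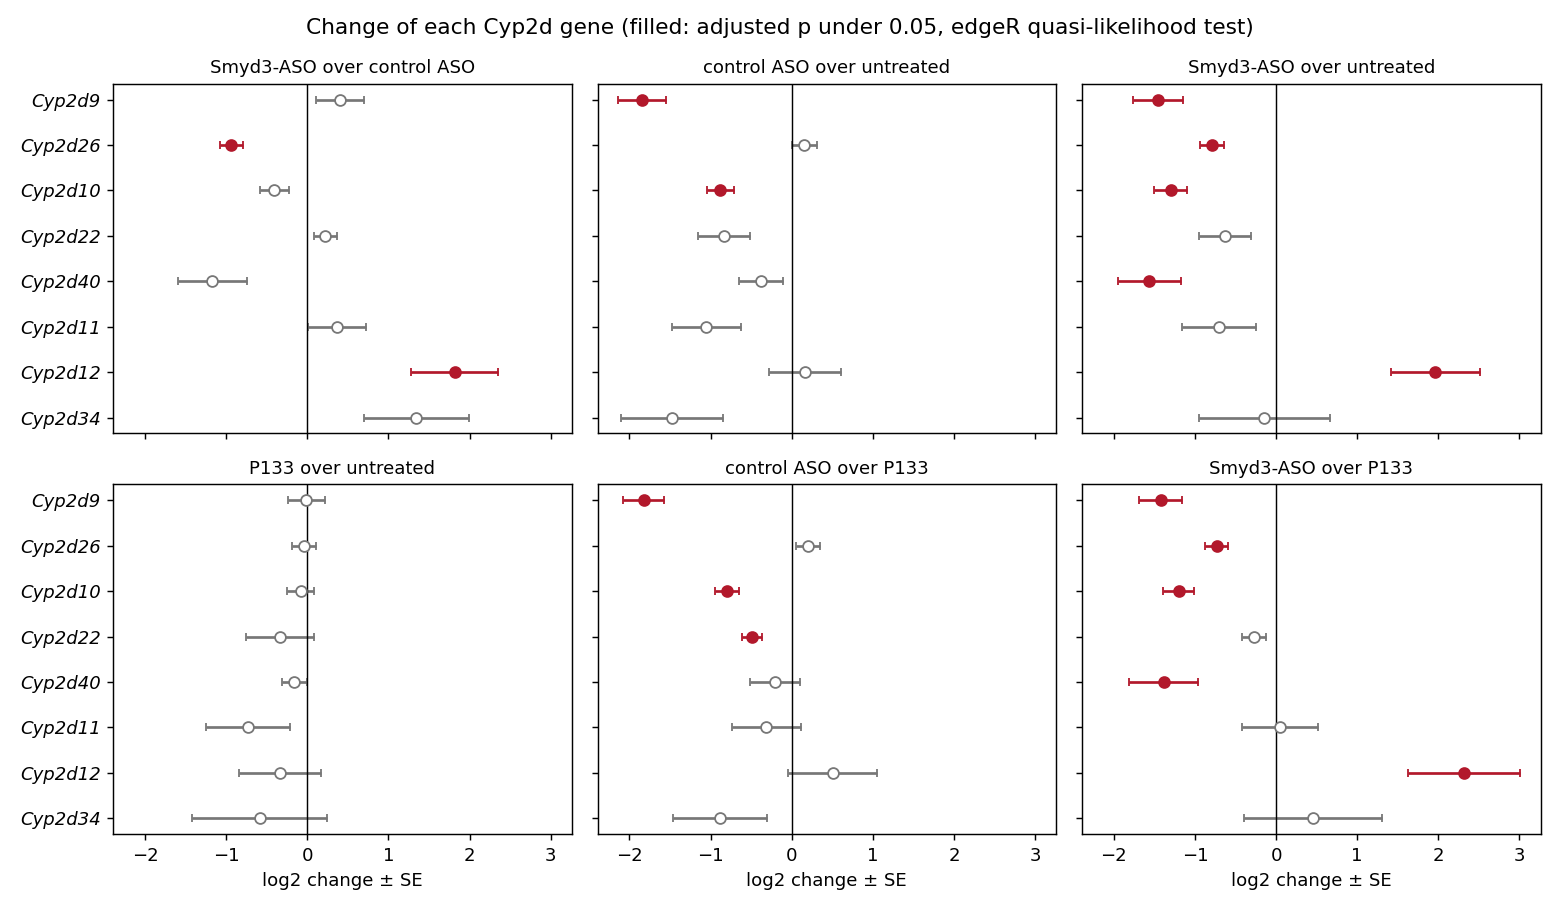
Log2 change of each member with its SE (horizontal axis) in the 6 comparisons. Filled points passed an adjusted p of 0.05. None is filled in P133 over untreated, and Cyp2d26 (-0.94) and Cyp2d12 (1.82) are filled in Smyd3-ASO over control ASO.

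Cyp2d11 and Cyp2d34, at means of 0.654 to 2.15 CPM in all groups, passed in none of the 6 comparisons, though in control ASO over untreated Cyp2d11 passed in 3 of 20 other fits (lowest adjusted p = 0.0196) and Cyp2d34 in 2 of 19 (lowest 0.0314). Cyp2d11 counts ran from 4 to 48 per mouse. Cyp2d34 was uneven within groups, with 124 counts in Smyd3-ASO mouse 4 against 4 to 26 in the other 5, and 48 in untreated mouse 1 against 3 to 12 in the other 4. At these counts only large changes could pass.

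Of the 10 pseudogenes of the family, 4 had enough counts to be tested, and Cyp2d38-ps rose in all 3 groups of DEN mice over untreated. It was at 2.32 to 6.55 CPM without treatment (median 4.52), 13.7 to 18.1 at P133, 12.0 to 34.9 with the control ASO (median 13.1) and 6.70 to 19.2 with the Smyd3-ASO (median 11.8). All DEN mice were thus above all untreated mice, by 6.70 against 6.55 CPM at the closest. In P133, control ASO and Smyd3-ASO over untreated, ranges were apart for 27.1, 27.6 and 28.4% of all genes. Called higher were 15.1, 23.7 and 24.4% of all genes in the same order. Over untreated the log2 change was 1.78 ± 0.23 in P133 (adjusted p = 5.1e-05), 1.95 ± 0.34 in control ASO (adjusted p = 0.000592) and 1.49 ± 0.31 in Smyd3-ASO (adjusted p = 0.00138). These 3 comparisons share the untreated mice, and all other fits kept the 3 calls. Cyp2d37-ps, which lies next to Cyp2d38-ps, fell in Smyd3-ASO over untreated (log2 change -1.04 ± 0.40, adjusted p = 0.0476), a call lost in 14 of 21 other fits, and did not pass over control ASO (-1.06 ± 0.37, adjusted p = 0.0512), though it did in 10 of 22 other fits (lowest adjusted p = 0.0129). Cyp2d36-ps and Cyp2d41-ps passed in none. The remaining 6, Cyp2d32-ps, Cyp2d33-ps, Cyp2d34-ps, Cyp2d35-ps, Cyp2d39-ps and Cyp2d67-ps, had 11 to 41 counts each over all mice. All 10 together held 0.898 to 3.98% of Cyp2d counts per mouse.

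Across the 21 mice, log2 CPM of Cyp2d9 and Cyp2d10 had a Pearson r of 0.88 and a Spearman rho of 0.87, and the r was 0.88 after the group means were subtracted. For Cyp2d9 and Cyp2d26 the r was 0.24 (rho 0.13, 0.41 within groups), and for Cyp2d10 and Cyp2d26 0.64 (rho 0.54, 0.67 within groups). The scarce Cyp2d11 had an r of 0.28 with Cyp2d9 (rho 0.24, 0.04 within groups) and 0.31 with Cyp2d10 (rho 0.33, 0.24 within groups). Cyp2d10 and Cyp2d40 had an r of 0.81 (rho 0.75, 0.67 within groups). Cyp2d12 ran against Cyp2d26 (r -0.69, rho -0.61, -0.29 within groups). These are descriptions over mice that share group, scaling and, for close copies, possibly reads.

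The genes whose levels were most like those of Cyp2d9, among 4616 genes compared over 21 mice, were the carboxylesterase Ces3a (r 0.95, rho 0.93, 0.92 within groups), the organic anion transporter Slco1a1 (r 0.95, rho 0.94, 0.86 within groups) and another cytochrome P450, Cyp2f2 (r 0.94, rho 0.93, 0.81 within groups). For Cyp2d10 they were Pdxk, Bcap31 and Naa60 (each r 0.95 to 2 decimals, rho 0.93 to 0.94). Cyp2d26 was most like the heparin cofactor Serpind1 (r 0.92, rho 0.83, 0.58 within groups), Maged1 (r 0.91, rho 0.72, 0.36 within groups) and the corticosteroid carrier Serpina6 (r 0.89, rho 0.83, 0.51 within groups). Cyp2d40 was most like Tram1, Ergic1 and Epb41l4b (r 0.89 each). Cyp2d22 was most like Tinf2, Rrp36 and Wdtc1 (r 0.80 to 0.86), Cyp2d12 like Aagab, Mrpl23 and Pts (0.82 to 0.86), Cyp2d11 like Nrbp1 and Bdh1 (0.63 to 0.68) and Cyp2d34 like Etnk2, Ak3 and Tor1aip2 (0.55 to 0.57). For these last 4 members rho was 0.31 to 0.65.

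The genes tested included 50 other cytochrome P450 genes of families 1 to 4. In control ASO over untreated, 27 were lower, 7 higher and 16 did not pass, where 22.2% of all genes were lower and 23.7% higher. The median log2 change of the 50 was -0.84, against 0.06 over all genes. With library totals 13 of the 50 were lower and 13 higher. Smallest adjusted p were those of Cyp4f14 (-1.76 ± 0.18), Cyp4f13 (-1.17 ± 0.16), Cyp3a41b (5.52 ± 0.62) and Cyp2f2 (-1.88 ± 0.26). In Smyd3-ASO over control ASO, 11 of the 50 were higher and 10 lower, with a median of 0.26, where 13.3% of all genes were higher and 12.9% lower. The Cyp2c genes had 9 of 13 lower in control ASO over untreated, and 1 higher and 1 lower in Smyd3-ASO over control ASO. Other phase 1 enzymes, such as carboxylesterases and flavin monooxygenases, had 14 of 21 lower and 1 higher in control ASO over untreated (6 lower and 3 higher with library totals), and 9 higher and 2 lower in Smyd3-ASO over control ASO.

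A list of 24 male-biased liver genes does not hold Cyp2d9. Both it and the female-biased list share cytochrome P450 genes, such as Cyp4a12b and Cyp3a41b, with the list above. In control ASO over untreated, 17 of the 24 fell and 0 rose (12 and 0 with library totals), with a median of -2.04. Over all genes, 22.2% fell and 23.7% rose. In P133 over untreated, 7 of the 24 fell and 1 rose (5 and 5 with library totals), beside 16.6 and 15.1% of all genes. In Smyd3-ASO over control ASO, 4 of the 24 rose and 0 fell, where 13.3% of all genes rose and 12.9% fell. The 4 were Ugt2b38 (3.11 ± 0.48), Cyp4a12b (2.54 ± 0.43), Ugt2b1 (1.02 ± 0.29) and Elovl3 (2.51 ± 0.77). Of 20 female-biased genes tested, 11 rose and 0 fell in control ASO over untreated (16 and 0 with library totals). In Smyd3-ASO over control ASO, 17 fell and 0 rose (15 and 0 with library totals). Cyp2d9 itself had a log2 change of 0.40 in that last comparison and did not pass.

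Of 15 genes that supply cytochrome P450 enzymes with electrons and haem, 6 fell and 1 rose in control ASO over untreated, where 22.2% of all genes fell and 23.7% rose. With library totals 2 fell and 7 rose. Alas1, the rate-limiting enzyme of haem synthesis, fell by 3.33 on the log2 scale (SE 0.32, adjusted p = 5.63e-06), and Hmox1, which breaks haem down, rose by 3.25 (SE 0.22, adjusted p = 1.74e-07). The haem synthesis enzyme Urod fell by 0.96 (adjusted p = 2.82e-05). In Smyd3-ASO over control ASO, Por, the reductase, was higher (1.16 ± 0.32, adjusted p = 0.018), as were Pgrmc1, a haem-binding partner of P450 enzymes (1.5 ± 0.206), and Cpox, of haem synthesis (0.80 ± 0.23), and Cyb5r3, the cytochrome b5 reductase, was lower (-0.59 ± 0.17). That made 4 of 15 higher and 1 lower, beside 13.3 and 12.9% of all genes.

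Of 22 regulators of liver P450 genes, 8 fell and 3 rose in control ASO over untreated (2 and 13 with library totals). Over all genes, 22.2% fell and 23.7% rose in that comparison. Hnf4a fell by 1.01 (SE 0.12, adjusted p = 1.35e-05), Cebpa by 1.32 (SE 0.18), the bile acid receptor Nr1h4 by 0.98 (SE 0.17) and Cebpb by 1.46 (SE 0.29). In Smyd3-ASO over control ASO, 5 of the 22 fell and 3 rose, beside 12.9 and 13.3% of all genes. Cebpb (2.13 ± 0.36) and Ahr (1.21 ± 0.23) were higher, and Hlf (-0.72 ± 0.15) and Cebpa (-0.69 ± 0.16) lower. In the growth hormone axis, 4 of 11 fell in control ASO over untreated. With DESeq2 size factors 4 fell and 1 rose, and with library totals 2 fell and 4 rose. The receptor Ghr fell by 1.81 (SE 0.20, adjusted p = 8.7e-06), Igf1 by 1.29 and Igfals by 1.21. Between the ASO groups 1 of 11 rose, Stat5a (0.59 ± 0.17), and 1 fell, Igfals (-0.71 ± 0.22). Of 13 genes tested that flank the Cyp2d cluster, 2 rose and 3 fell in control ASO over untreated (6 and 1 with library totals), and 3 rose and 3 fell in Smyd3-ASO over control ASO (3 and 2 with library totals).

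**Figure D4:**
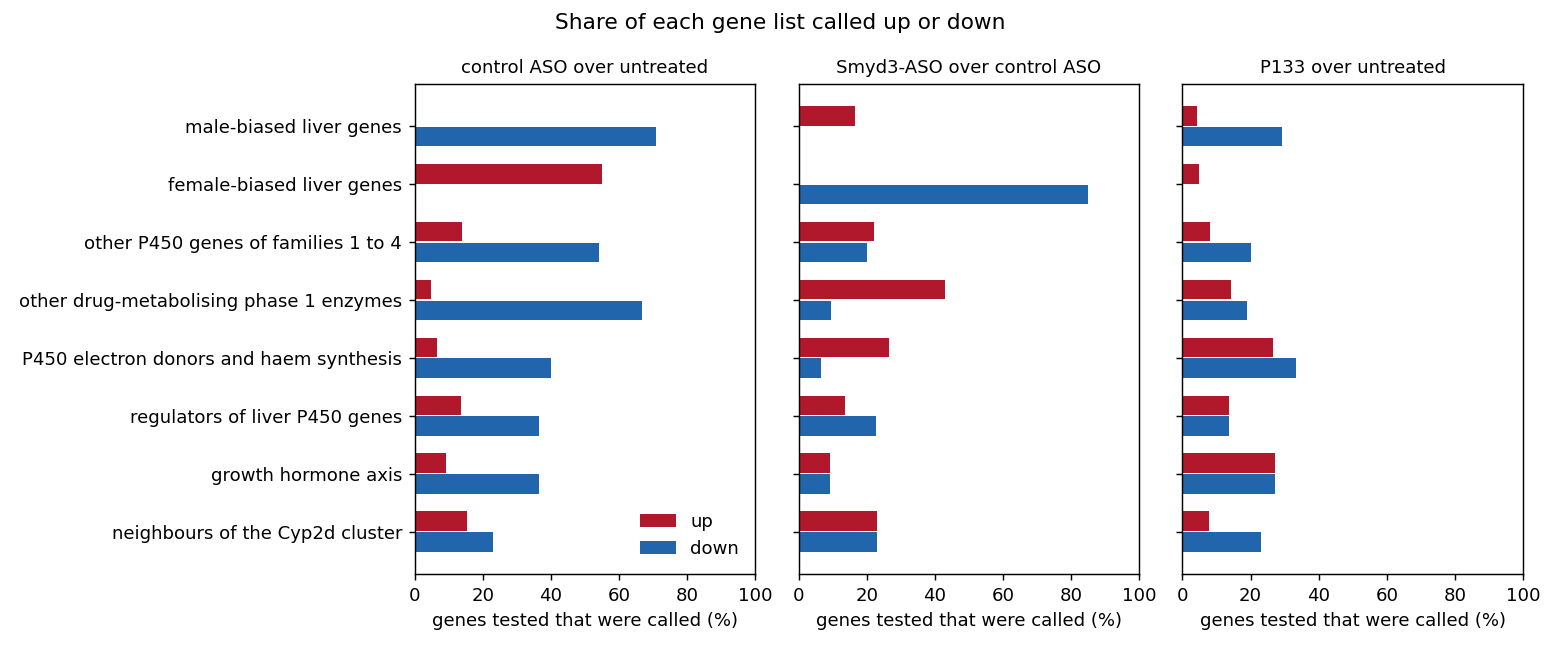
Percent of the tested genes of each list (vertical axis) that were called higher or lower (horizontal axis, 0 to 100%) in 3 of the comparisons. In control ASO over untreated, 17 of 24 male-biased genes were lower, beside 22.2% of all genes. In Smyd3-ASO over control ASO, 17 of 20 female-biased genes were lower, beside 12.9% of all genes.

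Markers of cell types moved with some of these groups. The summed level of 10 hepatocyte markers was 70099 to 116893 CPM without treatment, 46041 to 48183 at P133, 61558 to 89787 with the control ASO and 26703 to 51851 with the Smyd3-ASO. Every Smyd3-ASO mouse was thus below every control-ASO mouse. Of these 10 genes, 5 fell and 0 rose in Smyd3-ASO over control ASO, where 12.9% of all genes fell and 13.3% rose. The hepatocyte marker sum was also lower in every P133 mouse than in every untreated mouse. The 8 bile duct markers summed to 39.9 to 56.4 CPM without treatment, 51.7 to 86.9 at P133, 85.2 to 175 with the control ASO and 58.6 to 86.6 with the Smyd3-ASO, and the 6 neutrophil markers to 3.12 to 34.6, 2.53 to 6.21, 4.54 to 21.0 and 9.39 to 102 CPM. No hepatocyte or bile duct marker was at 0 in every mouse of a group, and Ly6g was at 0 in all P133 mice. The summed levels of the 6 erythroid markers found in the table (623 to 1613 CPM against 2029 to 5511) and of the 8 sinusoidal endothelium markers (154 to 180 CPM against 185 to 255) were also lower in every Smyd3-ASO mouse than in every control-ASO mouse. Of the erythroid genes 5 were tested, of which 3 fell and 1 rose, and of the 8 endothelial genes 3 fell and 0 rose. Sums of Kupffer cell and macrophage markers overlapped between Smyd3-ASO (184 to 372 CPM) and control-ASO mice (131 to 303 CPM). So did those of stellate cell and fibroblast markers (152 to 243 against 183 to 266 CPM). Lymphocyte marker sums overlapped too (16.3 to 28.7 against 11.5 to 23.3 CPM). The part of cell make-up in the Cyp2d values was not tested.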

How the data were processed

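Liver RNA of 21 mice was sequenced from 3' ends in 35 libraries. In both deposited tables the authors gave 1 column per mouse. The 5 untreated and 4 P133 mice had 1 library each. The 6 control-ASO mice had 12 and the 6 Smyd3-ASO mice 14, merged within a mouse, with 1 library in Smyd3-ASO mouse 6. Merging of libraries and the ASO thus cannot be told apart in comparisons of an ASO group with untreated or P133 mice. The main table holds raw counts per gene as deposited by the authors, and all 55413 gene IDs matched GENCODE vM21. The second, a score here, holds those counts divided by a size factor and rounded by the authors, and served as an alternative. The submitters' processing notes name HISAT2 2.1.0, mm10 and DESeq, while the counting program is not given in the sources used here.

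Each comparison used its own 2 groups in edgeR 4.0.16 (R 4.3.3), with TMM scaling and a robust quasi-likelihood test. The 15297 genes that passed filterByExpr entered the Benjamini-Hochberg adjustment, with a threshold of 0.05. The procedure was tested on simulated data in which few genes changed and the median gene did not shift, so that test does not bear on the choice of scaling. Errors of log2 changes are SE and those of levels and shares SD. The p-values measure the spread between mice, which the labels number as biological replicates. Alternatives were scaling by library totals or DESeq2 size factors, DESeq2 1.42.0, limma 3.58.1 voom, no filter, 1 fit of all 4 groups, the replicate block, thinning to equal depth, the second table and leaving out each mouse.

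The text names Smyd3, all Cyp2d genes, the 4 genes of each discussed list with the smallest adjusted p, and for each member the 3 named genes of mean log2 CPM of at least 4 with the highest Pearson correlation of log2 CPM (prior count 2). A few genes that this rule names are not reported here. Members and lists were chosen with earlier results of these data known.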

Additional observations from a re-analysis of the deposited data

Results flagged for a closer look

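A single mouse stood far from its group in 6 of the 32 combinations of a member and a group, by Dixon's 95% limit for the gap to the nearest other mouse. Chance flags about 1 in 20 such combinations where values are normally distributed, which need not hold for CPM, least of all near the floor. All 6 were the highest mouse of their group, and Cyp2d34 in untreated mice was at 0.711 against a limit of 0.71. The 6 are a description, with no test against chance. Cyp2d22 was at 276 CPM in untreated mouse 2, with the next mouse at 109, and at 110 CPM in P133 mouse 3, with the next at 95.8. Cyp2d26 was at 492 CPM in Smyd3-ASO mouse 5, with the next at 417, and that mouse too was below every control-ASO mouse. Cyp2d34 stood out in 3 groups, at 5.16 CPM in untreated mouse 1 (next 1.74), 2.88 CPM in P133 mouse 3 (next 0.842) and 5.49 CPM in Smyd3-ASO mouse 4 (next 1.41).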

How the results depend on the processing

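Of 1434 values of single genes under alternatives, 1275 kept their direction and side of the threshold, 46 lost a call, 34 gained 1, 76 changed sign with no call under either setting and 3 changed sign with a call. Those 3 did so with library totals: Cyp2d26 to 0.0821 in Smyd3-ASO over untreated, and in P133 over untreated Cyp2d26 to 0.54 and Cyp2d40 to 0.45. Library totals also gave 2 members called in place of 5 in Smyd3-ASO over untreated, 2 in place of 0 in P133 over untreated, and 10723 genes called in place of 7018 in control ASO over untreated and 7292 in place of 4839 in P133 over untreated. Of the genes called in these last 2, 93.6 and 88.7% were higher, against 51.6 and 47.7% with TMM. DESeq2 called 4 members in place of 2 in control ASO over untreated. With no filter, 1 member was called in place of 2 in Smyd3-ASO over control ASO and 3 in place of 5 in Smyd3-ASO over P133. Without Smyd3-ASO mice 1 and 2, 1 member was called in Smyd3-ASO over control ASO, and 2365 genes in place of 3794 in Smyd3-ASO over P133. Leaving out each mouse in turn gave 1 to 4 members in Smyd3-ASO over control ASO, 2 to 5 in control ASO over untreated, 3 to 5 in Smyd3-ASO over P133 (3 without any P133 mouse), and 2519 to 4282 genes in that last comparison, lowest without P133 mouse 2. The cause was not tested. The replicate block gave 2543 genes in place of 4131 in control ASO over P133. The labels give same-numbered mice nothing in common but the number. Correlations of their deviations ran from -0.12 to 0.112, and in each comparison 0 or 1 pair was over 0.1. Such correlations cannot show that nothing else was shared. Cyp2d34 has no value with thinning, where its counts fell under the filter. Counts of 1 to 210 per mouse limit Cyp2d11, Cyp2d12 and Cyp2d34.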
